A study of Homo sapiens with 4 samples.

Results

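DNA replication and S phase genes were followed on 4 arrays of Jurkat cells, a human leukaemia line of T cell origin that is grown in culture worldwide. The set holds 43 genes, chosen as the probe sets whose single gene symbol in the platform annotation is on a fixed list, and all 43 were measured, among 13717 genes kept in all. They had 81 probe sets on the array, of which 79 passed the filter on low signals. Since all 43 passed, no member is missing from the counts. The 4 groups, with 1 array each, were the shIKKE line treated with 10 ng/ml PMA plus 0.5 uM ionomycin for 3 h, the shIKKE line with solvent, the control line with the same PMA and ionomycin, and the control line with solvent. The shIKKE line carries a short hairpin RNA against IKKε, a kinase encoded by IKBKE, and the control line carries what the design text calls a control hairpin and the titles a vector. The labels do not say whether a line is 1 clone or a pool. PMA mimics diacylglycerol and so turns on protein kinase C, and ionomycin carries calcium across membranes, a pair of signals that the T cell receptor would otherwise give. Stimulated and solvent cells were told apart by their titles, since the treatment text does not differ. With 1 array per group no difference between arrays has a replicate check, so differences are given without a p-value unless a model over all 4 arrays is named.

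A replication origin is prepared in G1 phase, when the origin recognition complex, CDC6 and CDT1 load the MCM2 to MCM7 helicase onto DNA. On entry into S phase CDC45 and the GINS complex join the helicase and start it, and the polymerases, the sliding clamp PCNA and its RFC loader copy the DNA. E2F transcription factors, released from the retinoblastoma protein by cyclin E and its kinase, are known activators of most of these genes. Jurkat cells divide continuously in culture, so these genes are transcribed without any stimulus.

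By the probe set used for each gene, its brightest, no member was at least 2-fold higher in any of the 4 comparisons. Of the 43, 40 stayed within 2-fold in all 4 of them. The exceptions were ORC1 and E2F2, which were more than 2-fold lower with stimulation in both lines, and CDT1, which was so in the control line. E2F2 and the thymidine kinase gene TK1 also had signals 1.5-fold or more below those of the control line in shIKKE cells, with and without stimulation. A second TK1 probe set gave a log2 difference of 0.20 between the lines with stimulation. Further, dimmer E2F2 probe sets gave 0.34 and 1.04 for stimulation in the shIKKE line. Below 1.5-fold, small differences ran mostly one way. In 30 of 43 members the stimulated shIKKE array read lowest of the 4, against 29.3% of the 7900 genes at least as bright as the dimmest member, and in 25 of 43 the solvent array of the control line read highest, against 36.6% of those genes. Those genes were not matched to the members on signal level. The member median for stimulation was -0.26 in the shIKKE line and -0.25 in the control line. After subtracting the median of genes of like level it was -0.09 and -0.20.

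**Figure D1:**
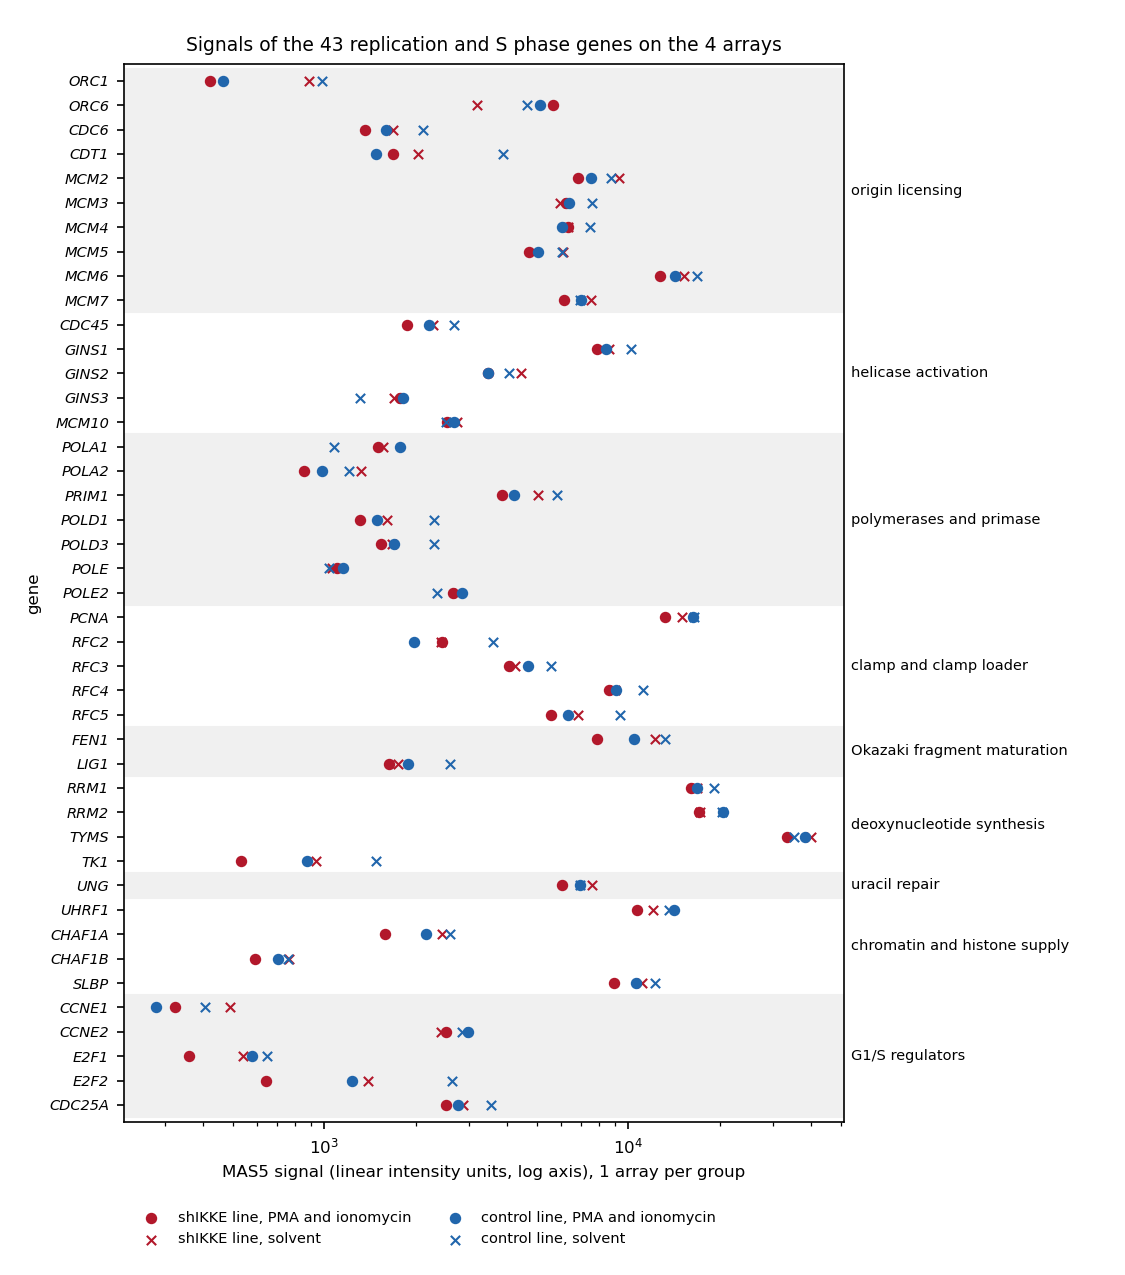
MAS5 signal in linear intensity units on a log axis for the probe set used of each of the 43 genes, with a circle for PMA and ionomycin, a cross for solvent, red for the shIKKE line and blue for the control line, 1 array per group. Most genes have 4 nearly equal signals, while the circles of ORC1 and E2F2 lie left of the crosses in each line, and signals span 280 to 39867.

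The arrays were scaled to equal trimmed means by the submitters, while the median signal was 69.1 on the stimulated shIKKE array, 49.7 on the solvent shIKKE array, 59.8 on the stimulated control array and 48.8 on the solvent control array. The brighter IKBKE probe set read 248, 180, 520 and 340 in that order, and the second 280, 287, 311 and 218, so shIKKE cells had less of the targeted mRNA by the first probe set in both treatments and by the second with stimulation. All 12 T cell markers passed the filter, with CD3D up to 28570, while 3 of 5 B cell, 2 of 6 myeloid, 1 of 4 erythroid and 2 of 5 epithelial markers did, none of them above 416. Only 4 of the 5 B cell and 2 of the 4 erythroid markers had a probe set under their single symbol, so the rest were not measured. The summed signal of the myeloid list was 274 and 185 in the shIKKE line with stimulation and with solvent, and 147 and 102 in the control line, and that of the epithelial list 347, 154, 305 and 179. CD14, LYZ, EPCAM and CDH1 did not pass the filter, and the part of such cells in the results was not tested. Whether fewer cells in S phase or less RNA per cell lies behind a lower signal cannot be told apart in bulk RNA. Signals of different genes come from different probes and are not compared as amounts. Differences below are of log2 of the signal plus 14.1, and percentages of all genes refer to the 13717 genes.

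The promoters of the 3 genes past 2-fold are shown because E2F factors are known to act on such promoters, with that of MCM6 beside them because it holds the most E2F words in a single promoter of any member, and its signals by the probe set used differed little. Sequences are RefSeq's for GRCh38.p14, the 250 bases before the annotated start, read along the gene's strand. They lie at chr1:52404424-52404673 (minus strand) for ORC1, chr16:88803539-88803788 (plus strand) for CDT1, chr1:23531234-23531483 (minus strand) for E2F2 and chr2:135876444-135876693 (minus strand) for MCM6. Capitals mark 4 E2F words on either strand, the pair TTCCCGC and TTCGCGC and the pair TTGCCGC and TTGGCGC.
ORC1: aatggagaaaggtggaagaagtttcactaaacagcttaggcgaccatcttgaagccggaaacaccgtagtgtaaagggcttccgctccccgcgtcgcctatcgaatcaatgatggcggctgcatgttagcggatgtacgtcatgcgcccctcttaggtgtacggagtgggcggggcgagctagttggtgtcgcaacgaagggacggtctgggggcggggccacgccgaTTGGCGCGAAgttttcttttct
CDT1: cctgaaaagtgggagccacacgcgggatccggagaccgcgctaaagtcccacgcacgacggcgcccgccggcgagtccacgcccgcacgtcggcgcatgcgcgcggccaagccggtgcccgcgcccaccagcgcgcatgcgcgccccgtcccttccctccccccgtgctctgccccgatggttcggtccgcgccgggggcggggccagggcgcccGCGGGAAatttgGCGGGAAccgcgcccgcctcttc
E2F2: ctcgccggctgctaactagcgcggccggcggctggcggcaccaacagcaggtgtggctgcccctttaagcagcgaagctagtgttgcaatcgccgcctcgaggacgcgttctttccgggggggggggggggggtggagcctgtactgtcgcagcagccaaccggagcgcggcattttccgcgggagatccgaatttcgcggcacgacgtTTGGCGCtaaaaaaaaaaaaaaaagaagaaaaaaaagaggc
MCM6: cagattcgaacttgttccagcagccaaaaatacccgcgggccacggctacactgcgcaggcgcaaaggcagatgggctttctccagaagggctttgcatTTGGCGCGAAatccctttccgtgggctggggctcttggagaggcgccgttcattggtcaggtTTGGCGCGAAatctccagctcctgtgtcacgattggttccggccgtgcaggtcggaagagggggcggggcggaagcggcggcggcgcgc
In ORC1, 2 words on opposite strands overlap and begin 22 and 19 bases before the start. CDT1 has 2 separate words 35 and 23 bases before the start, and E2F2 has 1 at 41 bases. MCM6 has 2 overlapping pairs, which begin 151, 148, 89 and 86 bases before the start.

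Promoters were found for 39 of the 43 members, and at least 1 of the 4 E2F words occurred in 24 of the 39 (61.5%). The same words occurred in 20.2% of the 11032 kept genes with a promoter and in 10.9% of all 35116 promoters. Where a gene had several starts, a word before any of them counted. The words were chosen after the longer word TTTNNCGC, found in 19 of 39 members (48.7%) and 10.7% of kept genes, had been seen to miss ORC1. The word CCAAT, whose reverse complement ATTGG shares letters with TTGGCGC in ORC1, occurred in 23 of 39 members (59.0%) and in 40.7% of kept genes. Members with and without an E2F word had nearly the same median difference. With stimulation it was -0.26 for the 24 with a word and -0.30 for the 15 without in the shIKKE line, and -0.25 and -0.27 in the control line. A word is a match of letters and not a shown binding site.

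The first comparison asks what 3 h of PMA and ionomycin did to these genes in each line. In the shIKKE line none of the 43 was at least 2-fold higher, against 10.3% of all genes and 3.28% of genes at least as bright as the dimmest member. There, 2 of 43 had a signal reduced 2-fold or more, against 2.68% of all genes and 0.987% of the bright ones. In the control line none was at least 2-fold higher (7.57% of all genes, 4.09% of bright ones) and 3 were lower (6.44% and 3.58%). At 1.5-fold, 1 member was higher and 6 were lower in each line. The shares of all genes lower by 1.5-fold were 8.88% in the shIKKE line and 17.5% in the control line, and those of bright genes 6.82% and 14.5%, so the members' counts of 6 of 43 were near the background in the control line. The shares of all genes higher by 1.5-fold were 19.1% and 16%, and those of bright genes 7.9% and 10.7%, all above 1 in 43. The remaining 36 members lay within 1.5-fold in each line.

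The median difference of the members was -0.26 in the shIKKE line and -0.25 in the control line, beside -0.01 and -0.07 over all genes and -0.11 and -0.09 over the bright genes. A difference below 0 was found in 37 of 43 members in the shIKKE line and in 32 of 43 in the control line, against 50.9% and 54.7% of all genes and 62.2% and 57.7% of bright genes. Both lines, which share no array, had the lower signal with stimulation in 30 of 43 members (69.8%), against 42.7% of bright genes. After subtracting the median of genes of like signal level, the member medians were -0.09 in the shIKKE line and -0.20 in the control line. With that adjustment 1 member stayed at least 2-fold lower in each line, E2F2 at -1.02 in the shIKKE line and CDT1 at -1.28 in the control line, while ORC1 gave -0.95 and -0.85.

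**Figure D2:**
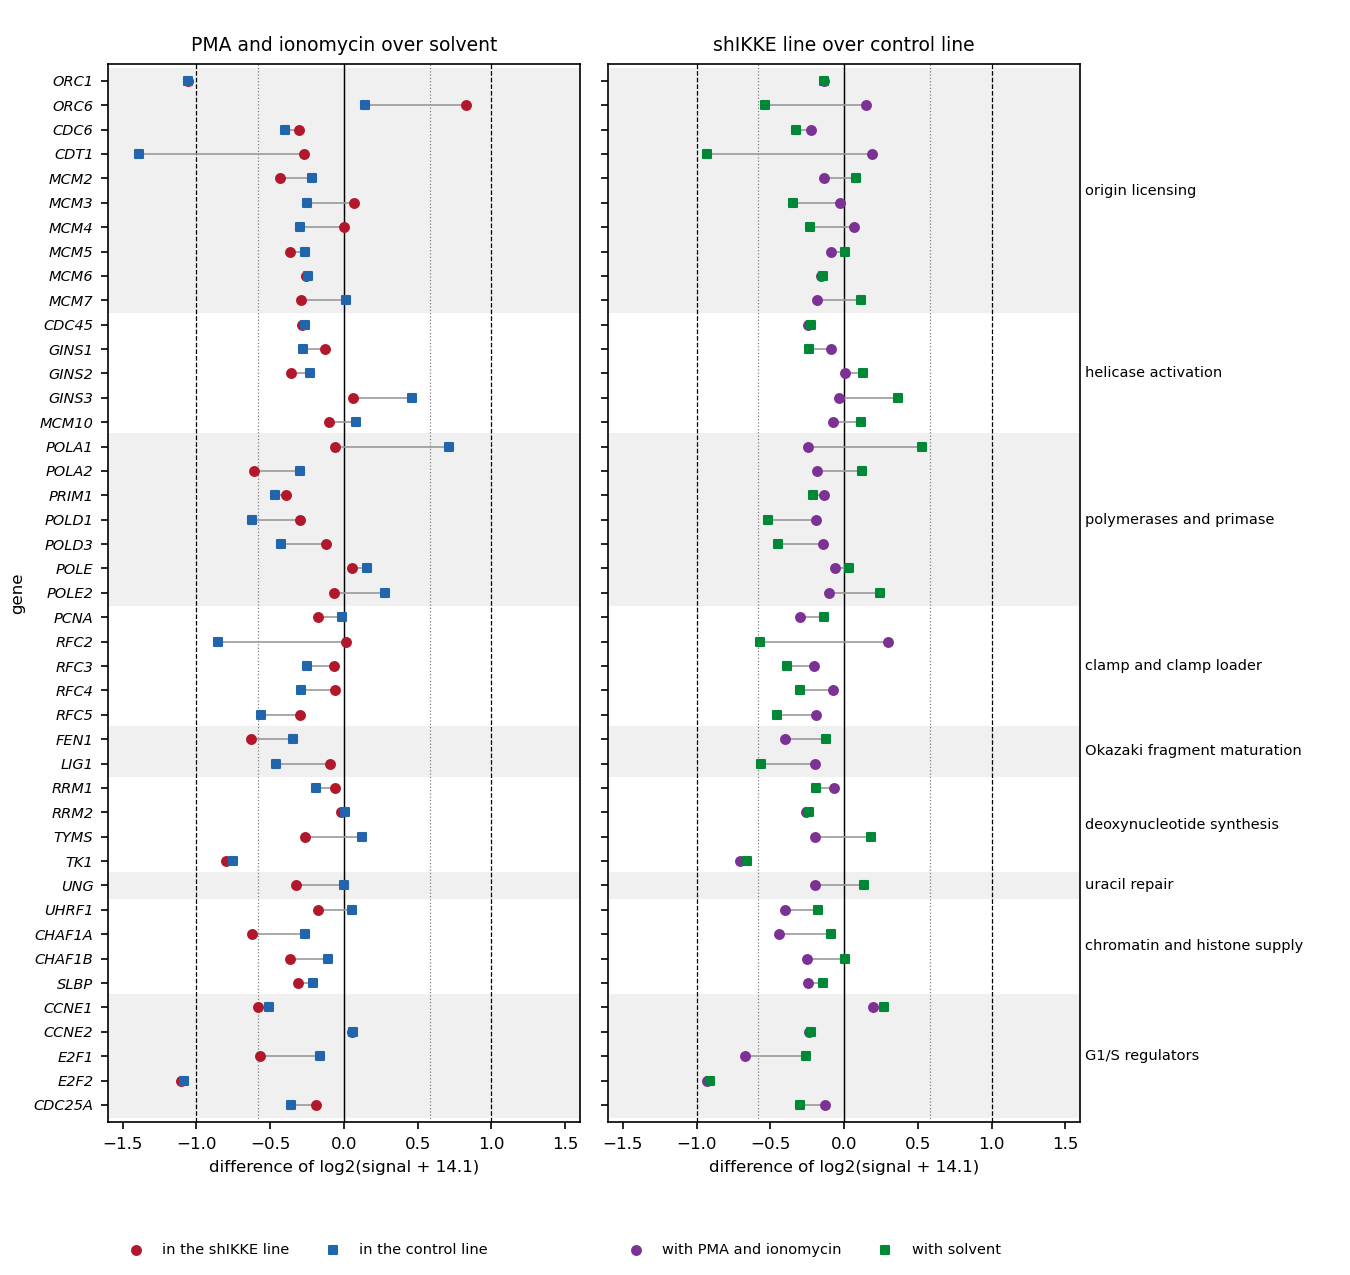
Difference of log2(signal + 14.1) for each of the 43 genes, with stimulation over solvent on the left (circles for the shIKKE line, squares for the control line) and the shIKKE line over the control line on the right (circles with PMA and ionomycin, squares with solvent). Dashed lines mark 2-fold and dotted lines 1.5-fold. ORC1, E2F2 and TK1 have nearly the same difference in both lines on the left, while CDT1, RFC2 and POLA1 have long lines between their points.

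Among the 10 origin licensing genes, ORC1 stood apart. ORC1 encodes the largest subunit of the origin recognition complex and is known to be made in G1 phase and degraded in S phase. It read 422 with stimulation and 893 with solvent in the shIKKE line, and 465 and 982 in the control line. Both stimulated arrays lay below both solvent arrays, and the difference was -1.06 in each line. ORC1 has 1 probe set, so no second probe set bears on it. Set against the other line's solvent array, an alternative added with the data known, it was -1.19 in the shIKKE line and -0.92 in the control line. Such values include the difference between the lines.

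CDT1, which brings the MCM helicase to origins, was lower with stimulation mainly in the control line. It read 1682 with stimulation and 2028 with solvent in the shIKKE line (-0.27), and 1474 and 3879 in the control line (-1.39). The solvent array of the control line was the high one, and the other 3 lay close together. With the shIKKE solvent array as its baseline, the stimulated control array differed by -0.46. A second, dimmer probe set read 275 and 513 in the shIKKE line (-0.87) and 315 and 863 in the control line (-1.41). By that probe set both stimulated arrays were below both solvent arrays. The brighter probe set has the suffix _x_at, which the manufacturer gives to sets that may also bind other transcripts.

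ORC6, a small subunit of the origin recognition complex, ran the other way in the shIKKE line and is the 1 member at least 1.5-fold higher there. It read 5665 with stimulation and 3184 with solvent in the shIKKE line (0.83), and 5118 and 4631 in the control line (0.14). Its only probe set also has the suffix _x_at. CDC6, the loading factor that works with CDT1, read 1358 and 1681 in the shIKKE line (-0.31) and 1592 and 2108 in the control line (-0.40). Its second probe set gave -0.58 and -0.44.

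By the probe set used, the 6 subunits of the MCM2 to MCM7 helicase differed less. Their differences ran from -0.44 (MCM2) to 0.07 (MCM3) in the shIKKE line and from -0.30 (MCM4) to 0.01 (MCM7) in the control line. MCM6 read 12730 with stimulation and 15211 with solvent in the shIKKE line (-0.26), and 14180 and 16763 in the control line (-0.24). MCM2 read 6851 and 9276 in the shIKKE line and 7538 and 8774 in the control line (-0.22). A second MCM5 probe set, with signals of 1219 to 2032, gave -0.73 in the shIKKE line and 0.02 in the control line, while the one used gave -0.36 and -0.27. Further MCM4 probe sets gave -0.43, -0.54 and -0.04 in the shIKKE line, and -0.16, -0.66 and 0.30 in the control line. The last of them had signals up to 218. Within this group of 10 the median difference was -0.28 in the shIKKE line and -0.26 in the control line, with 8 of 10 below 0 in each.

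With stimulation the helicase activation genes all lay within 1.5-fold by the probe set used. CDC45, the partner that the helicase needs to unwind DNA, read 1864 with stimulation and 2278 with solvent in the shIKKE line (-0.29), and 2214 and 2666 in the control line (-0.27). GINS1 and GINS2 were lower by 0.13 to 0.36 in both lines by the probe set used. Dim further GINS2 probe sets, with signals up to 209, gave 0.46 and 0.40 in the shIKKE line. In the control line they gave 0.04 and 0.28. GINS3 had the highest values of this group, at 0.06 in the shIKKE line and 0.46 in the control line. A second GINS3 probe set gave -0.42 in the shIKKE line and 0.63 in the control line. MCM10, which helps to start the helicase, gave -0.10 and 0.08, and the group medians were -0.13 and -0.23.

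Polymerase genes moved in different directions. POLA1, the catalytic subunit of the polymerase that makes primers with primase, read 1496 with stimulation and 1562 with solvent in the shIKKE line (-0.06), and 1776 and 1077 in the control line (0.71). It is the 1 member at least 1.5-fold higher in the control line, where the solvent array was the low one of the 4. POLA2, its accessory subunit, read 859 and 1316 in the shIKKE line (-0.61) and 979 and 1206 in the control line (-0.30). Dim further POLA2 probe sets, with signals up to 274, gave -1.24 and 0.56 in the shIKKE line. POLD1, the catalytic subunit of polymerase delta on the lagging strand, read 1305 and 1604 in the shIKKE line (-0.30) and 1490 and 2301 in the control line (-0.62). The primase gene PRIM1 gave -0.39 and -0.47, and POLD3 -0.12 and -0.43. Polymerase epsilon, which copies the leading strand, differed little, with POLE at 0.06 and 0.16 and POLE2 at -0.07 and 0.28.

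PCNA, the sliding clamp, read 13231 with stimulation and 14965 with solvent in the shIKKE line (-0.18), and 16288 and 16467 in the control line (-0.02). Of the clamp loader subunits, RFC2 differed most. It read 2436 and 2411 in the shIKKE line (0.01) and 1977 and 3592 in the control line (-0.86). Its second probe set read 1757 and 2337 in the shIKKE line (-0.41) and 1627 and 2333 in the control line (-0.52). By the second probe set RFC2 was thus lower with stimulation in both lines. RFC5 gave -0.30 and -0.57, and RFC3 and RFC4 lay between -0.29 and -0.06, by the probe set used. Further RFC5 probe sets gave -0.26 and 0.06 in the shIKKE line, and -0.20 and -0.61 in the control line. A second RFC3 probe set ran opposite ways in the lines (-0.45 in shIKKE cells and 0.64 in control cells). A dim further one, with signals up to 264, was higher in both (0.36 and 0.31).

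FEN1, the nuclease that trims Okazaki fragments, read 7864 with stimulation and 12185 with solvent in the shIKKE line (-0.63), and 10400 and 13236 in the control line (-0.35). Its second probe set gave -0.55 and -0.11. LIG1, the ligase that joins the fragments, gave -0.09 in the shIKKE line and -0.46 in the control line. Both genes were thus lower in both lines, with the order of the lines reversed between them.

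The genes of deoxynucleotide supply other than TK1 lay between -0.26 and 0.12 by the probe set used. RRM2, the subunit of ribonucleotide reductase whose amount is known to follow the cell cycle, read 17041 with stimulation and 17239 with solvent in the shIKKE line (-0.02), and 20398 and 20331 in the control line (0.00). TYMS, thymidylate synthase, read 33223 and 39867 in the shIKKE line (-0.26) and 38098 and 35060 in the control line (0.12), and RRM1 gave -0.06 and -0.19. The second RRM2 probe set, with signals of 10760 to 15335, gave -0.30 and -0.26, that of RRM1 -0.32 and -0.15 and that of TYMS -0.31 and -0.11. TK1, which salvages thymidine, read 530 and 935 in the shIKKE line (-0.80) and 875 and 1483 in the control line (-0.75). A second TK1 probe set read 564 and 536 in the shIKKE line (0.07) and 489 and 964 in the control line (-0.96). The lower TK1 signal with stimulation was therefore found by both probe sets in the control line and by 1 of 2 in the shIKKE line.

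UNG, which removes uracil from DNA, read 6046 with stimulation and 7582 with solvent in the shIKKE line (-0.33), and 6919 on both arrays of the control line. The 4 chromatin genes all had the lower signal with stimulation in the shIKKE line, at -0.17 for UHRF1, which guides maintenance DNA methylation, -0.62 for CHAF1A and -0.37 for CHAF1B, subunits of the histone chaperone CAF-1, and -0.31 for SLBP, which binds histone mRNA. In the control line they gave 0.05, -0.26, -0.11 and -0.21. CHAF1A read 1578 and 2434 in the shIKKE line and 2152 and 2588 in the control line, and 3 further probe sets gave -0.35, -0.09 and 0.45 in the shIKKE line, the last with signals up to 80.9.

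Of the G1/S regulators, E2F2 had the largest difference. This activator E2F read 641 with stimulation and 1395 with solvent in the shIKKE line (-1.11), and 1232 and 2635 in the control line (-1.09). The stimulated array was the lower in each line, and the solvent shIKKE array was close to the stimulated control array. Further probe sets, with signals of 16.7 to 142, gave 0.34 and 1.04 in the shIKKE line and -0.22 and -0.14 in the control line. Their direction was thus the opposite in the shIKKE line. With the other line's solvent array as baseline the difference was -2.02 in the shIKKE line and -0.18 in the control line.

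CCNE1, cyclin E1, which drives entry into S phase with CDK2, read 324 with stimulation and 491 with solvent in the shIKKE line (-0.58), and 280 and 404 in the control line (-0.51). CCNE2, its close relative, differed by 0.05 and 0.06 by the probe set used. A dimmer second CCNE2 probe set, with signals of 155 to 267, gave -0.30 in the shIKKE line and 0.74 in the control line. E2F1 read 357 and 538 in the shIKKE line (-0.57) and 577 and 646 in the control line (-0.16). A second E2F1 probe set, with signals of 283 to 402, gave 0.10 in the shIKKE line and -0.48 in the control line, so the 2 probe sets differed in which line had the more negative stimulation difference. CDC25A, a phosphatase that activates CDK2, gave -0.19 and -0.36 by the probe set used. Its other probe sets ran the opposite way. The brighter of them read 1565 and 682 in the shIKKE line (1.18) and 1252 and 1116 in the control line (0.16). The dimmer read 279.7 and 250.4 in the shIKKE line (0.15) and 389 and 150.2 in the control line (1.30).

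**Figure D3:**
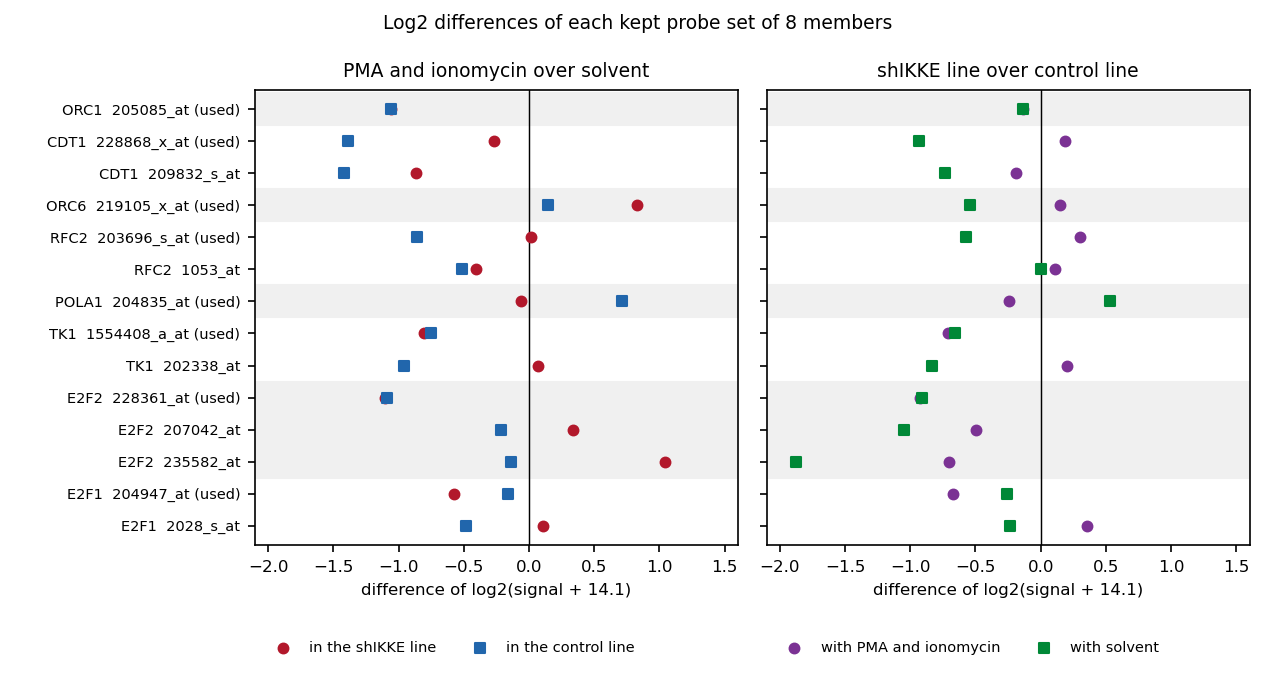
Difference of log2(signal + 14.1) for every kept probe set of 8 of the genes, stimulation over solvent on the left and the shIKKE line over the control line on the right, 1 array per group. The CDT1 probe sets all lie left of 0 for stimulation, while those of E2F2 and TK1 in the shIKKE line lie on both sides of 0, and all E2F2 probe sets lie left of 0 for the lines.

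Averaged over the lines in an additive limma model fitted to all 4 arrays, no member passed an adjusted p of 0.05 for stimulation, and 1 of 13717 genes did (0.00729%). Its 1 residual degree of freedom measures how far the responses of the lines differ, in place of a replicate error. At an unadjusted p under 0.05 there were 3 members, all lower, against 13.8% of all genes. These were E2F2 (-1.10 ± 0.25, SE, adjusted p = 0.195 by limma), ORC1 (-1.06 ± 0.25, SE, adjusted p = 0.204) and TK1 (-0.78 ± 0.25, SE, adjusted p = 0.306). CDT1 came next (-0.83 ± 0.36, SE, adjusted p = 0.397). With the error allowed to follow the signal level, 4 members passed as lower, namely E2F2, ORC1, CDT1 and TK1, against 405 lower genes of 13717 in all (2.95%), while 639 genes were higher. In that fit a gene borrows its error from genes with similar signals, and the difference between its own responses in the lines counts for little. CDT1, whose responses differ by 1.12, had its SE fall from 0.36 to 0.23.

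Beside the members, 39 further replication genes were measured. With stimulation 2 of 39 were at least 2-fold higher and none lower in the shIKKE line, and 1 was higher and 1 lower in the control line, with medians of 0.00 and -0.05. MCM9, a relative of the helicase subunits that acts in recombination repair, read 1335 with stimulation and 560 with solvent in the shIKKE line (1.23), and 1257 and 464 in the control line (1.41). A second MCM9 probe set gave -0.12 and -0.51. The other 2 past 2-fold were MTBP, which helps to fire origins (1.18 in the shIKKE line, 0.16 in the control line), and POLD4, a small subunit of polymerase delta (-0.63 and -1.02). DNA2, a nuclease and helicase, was 0.73 and 0.70 higher.

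Of 14 genes of the E2F and RB family and S phase kinases, 1 was at least 2-fold different with stimulation. E2F3 read 5537 with stimulation and 3483 with solvent in the shIKKE line (0.67), and 5734 and 2484 in the control line (1.20). Its second probe set read 469 and 474 in the shIKKE line and 675 and 329.7 in the control line. The brighter probe set of E2F3 was higher with stimulation in both lines, and the dimmer one in control cells. E2F5 gave -0.39 in the shIKKE line and 0.92 in the control line, and E2F7, a repressor E2F, gave -0.59 and -0.62. Mitosis genes had lower medians than the members in the control line, at -0.30 in the shIKKE line and -0.52 in the control line over 20 genes. Of these, 4 of 20 in shIKKE cells and 8 of 20 in control cells were 1.5-fold lower or more, among them BUB1B (-0.59 and -0.96), KIF20A (-0.93 and -0.59) and CDC25C (0.10 and -1.40). The difference between the lists was not tested.

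**Figure D4:**
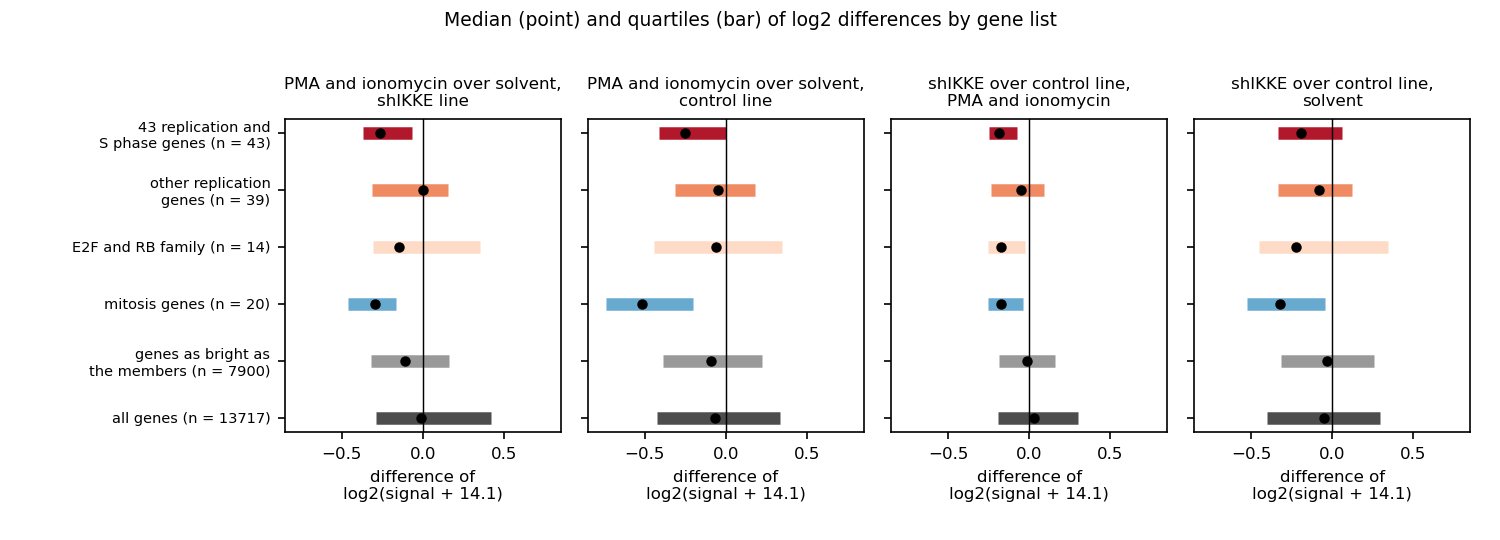
Median (black point) and quartiles (coloured bar) of the difference of log2(signal + 14.1) over the 43 genes, other replication genes, the E2F and RB family, mitosis genes, the 7900 genes at least as bright as the dimmest member and all 13717 genes, in each of the 4 comparisons. The 43 genes have medians of -0.26 and -0.25 with stimulation, and the 20 mitosis genes -0.30 and -0.52.

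The second comparison sets the shIKKE line against the control line in each treatment. With stimulation none of the 43 was at least 2-fold higher (5.99% of all genes, 0.342% of bright ones) or lower (2.37% and 0.633%), and 3 were at least 1.5-fold lower (6.78% and 3.68%) and none higher (12.8% and 2.8%). With solvent none was at least 2-fold higher (4.34% and 1.77%) or lower (6.68% and 2.97%), and 3 were at least 1.5-fold lower (16.5% and 11.5%) and none higher (12% and 8.23%). The counts at 1.5-fold were therefore below the background with solvent. With stimulation, the 3 lower members were near the share of all genes and above that of bright genes. The member median was -0.19 with stimulation and -0.19 with solvent, beside 0.03 and -0.05 over all genes. With stimulation 37 of 43 members were below 0 against 46.5% of all genes, and with solvent 29 of 43 against 53.7%, and among bright genes the shares were 52.8% and 52.7%. Both treatments, which share no array, had the lower signal in the shIKKE line in 25 of 43 members (58.1%), against 31.0% of bright genes.

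E2F2 was the member with the largest difference between the lines that held in both treatments. It read 641 in the shIKKE line and 1232 in the control line with stimulation (-0.93), and 1395 and 2635 with solvent (-0.91). Every further E2F2 probe set was lower in the shIKKE line too, at -0.50 and -0.70 with stimulation and -1.05 and -1.88 with solvent, although their signals were dim. TK1 read 530 in the shIKKE line and 875 in the control line with stimulation (-0.71), and 935 and 1483 with solvent (-0.66). Its second probe set gave 0.20 with stimulation and -0.83 with solvent, so that the lower TK1 held by both probe sets only with solvent.

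By the probe set used, the other members past 1.5-fold were so in 1 treatment. E2F1 gave -0.67 with stimulation and -0.26 with solvent, and 0.35 and -0.23 by its second probe set. CDT1 gave 0.19 with stimulation and -0.93 with solvent, and -0.19 and -0.73 by its second probe set. The value of 3879 for CDT1 in solvent control cells is part of both this difference and the stimulation difference of that line. Short of 1.5-fold, LIG1, RFC2 and ORC6 were lower in the shIKKE line with solvent by 0.54 to 0.57. They gave -0.20, 0.30 and 0.15 with stimulation. In the other direction, POLA1 gave 0.53 with solvent and -0.24 with stimulation. GINS3 gave 0.36 and -0.04, and 0.75 and -0.29 by its second probe set. The second RFC2 probe set gave 0.00 with solvent and 0.11 with stimulation. MCM6 gave -0.16 with stimulation and -0.14 with solvent, and -0.65 and -0.73 by a dimmer second probe set. Other probe sets not used were past 1.5-fold in both directions. With stimulation they included MCM10 (-0.80), RRM1 (-0.60) and RFC3 (-0.74 and 0.64 by different sets). With solvent they included CDC25A (-0.70 and 0.69 by different sets) and CCNE2 (0.66). Of the 43, 2 had the higher signal in the shIKKE line in both treatments by the probe set used, CCNE1 (0.20 and 0.27) and GINS2 (0.01 and 0.13).

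In the limma model no member passed for the line averaged over both treatments, and 0 of 13717 genes did (0%). At an unadjusted p under 0.05 there were 2 members, both lower, against 7.29% of all genes (1000). They were E2F2 (-0.92 ± 0.25, SE, adjusted p = 0.597 by limma) and TK1 (-0.68 ± 0.25, SE, adjusted p = 0.676). With the error following the signal level E2F2 alone of the members passed, with an adjusted p of 0.0133, against 152 lower genes in all (1.11%) and 80 higher ones. RBL2, an RB family pocket protein outside the 43, gave -0.80 with stimulation and -0.83 with solvent, and -1.85 and -0.95 by a dimmer second probe set. Of the 39 further replication genes, none was at least 2-fold different between the lines in either treatment. Of the E2F and RB list, 1 was 2-fold lower and 1 higher in the shIKKE line with solvent, E2F8 (-1.20, and -0.24 with stimulation) and E2F5 (1.08, and -0.23). Of the mitosis list 1 was lower with solvent, CDC25C (-1.46, and 0.04 with stimulation).

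The third comparison asks whether the lines responded differently, as the response of the shIKKE line minus that of the control line. Of the 43 members 1 was at least 2-fold above 0 (11.4% of all genes, 3.38% of bright ones) and none at least 2-fold below (4.67% and 1.75%), with 3 above and 1 below at 1.5-fold (22.3% and 12.2% of all genes, 11.8% and 9.19% of bright ones). The median was -0.02, beside 0.08 over all genes. The 4 highest were CDT1 (1.12), RFC2 (0.87), ORC6 (0.68) and LIG1 (0.36), and the 4 lowest POLA1 (-0.78), E2F1 (-0.41), GINS3 (-0.40) and TYMS (-0.38). Second probe sets gave 0.55 for CDT1, 0.11 for RFC2, 0.59 for E2F1 and -1.04 for GINS3, so CDT1 and GINS3 kept their direction and E2F1 did not. By the probe set used, the response difference was 0.00 for ORC1, -0.02 for E2F2 and -0.05 for TK1. Further probe sets gave 0.55 and 1.18 for E2F2 and 1.03 for TK1, and ORC1 has none.

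Of the 24 members with several kept probe sets, all sets had the same sign of the stimulation difference in 11 in the shIKKE line and in 12 in the control line. For the lines this was 15 with stimulation and 13 with solvent. The median over these genes of the SD between probe sets was 0.27 and 0.23 for stimulation in the shIKKE and control lines.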

How the data were processed

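Gene expression was measured on 4 single-colour oligonucleotide arrays from biotin-labelled cRNA made from 6 ug of total RNA, per the labels' protocols. The values are the intensity that the authors deposited for every probe set, a linear MAS5 signal according to the submitters' processing notes. The sources used here give no MAS5 version, scaling target or filter. The 2% trimmed mean was 500.07 on each array. No column was left out (0).

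From 54675 probe sets, 62 array controls were left out. In the platform annotation 41091 probe sets had 1 symbol, 1801 had several and 11721 had none. Intensities were taken to log2 after 14.1 was added, the 25th percentile of all signals. Probe sets were kept where 1 array reached 56.4, the median signal. The kept probe set with the highest average log2 value stood for its gene, which gave 13717 genes. Thresholds were 2-fold and 1.5-fold.

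Average effects used R 4.3.3 with limma 3.58.1 (a linear fit with eBayes, two-sided, Benjamini-Hochberg adjusted over all genes). The fit was also run on simulated data, with a shift far above any member's and equal in both lines. That run does not show how well differences of the size seen here are detected. Other steps used Python 3.11.15, pandas 2.3.3, numpy 2.4.6 and scipy 1.17.1, with plots by matplotlib 3.10.9. Promoters were matched by symbol. Precision is limited by 1 array per group. Members, lists and roles were chosen with earlier results of these data known. Every member at least 1.5-fold different is named, with the 4 highest and 4 lowest for the difference of responses. Up to 3 further genes are named per list and comparison. Probe sets and remaining members were chosen after their values were seen. Alternatives were another pseudocount, no filter, quantile normalization, the median of probe sets, level-matched centring and a variance trend.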

Additional observations from a re-analysis of the deposited data

Results flagged for a closer look

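RFC2 and POLA1 had stimulation differences of opposite sign in the lines, with 1 of the 2 past 1.5-fold. For RFC2 the shIKKE line gave 0.01 and the control line -0.86, so the response difference was 0.87, and its second probe set gave 0.11. For POLA1 the shIKKE line gave -0.06 and the control line 0.71, a response difference of -0.78. In both the small value is close to 0. CDT1 had line differences of opposite sign, 0.19 with stimulation and -0.93 with solvent, which differ by 1.12, and by 0.55 for its second probe set. These differences between lines or treatments were not tested, since each group has 1 array.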

How the results depend on the processing

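No paired analysis was possible because each group has 1 array and the labels give no replicate numbers. Of the recomputed counts and medians, 175 held and 30 moved, and of the values of single members 151 held, 24 moved and 5 reversed. Pseudocount, filter and quantile normalization moved no count at the fold thresholds past 1.5 times. The 2 members at an unadjusted p under 0.05 between the lines became 1 with a pseudocount of 1, with no filter and with the median of probe sets. The member median ranged from -0.36 to -0.09 for stimulation in the shIKKE line and from -0.26 to -0.07 in the control line. It ranged from -0.19 to -0.14 between the lines with stimulation and from -0.25 to -0.11 with solvent. When a gene was the median over its probe sets, stimulation had 1 member at least 2-fold higher, 2 at least 1.5-fold higher and 3 lower in the shIKKE line, and 2 at least 1.5-fold higher in the control line. By that choice the lines with solvent had 1 member at least 2-fold lower, and the responses 2 below by 2-fold and 4 by 1.5-fold. After subtracting the median of genes of like level, the stimulated shIKKE cells had 1 member at least 2-fold lower and 3 at least 1.5-fold lower, and the control cells 1 at least 2-fold lower. The variance trend in limma gave 4 members lower with stimulation and 1 lower in the shIKKE line, against 2.95% and 1.11% of all genes.

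The remaining 3 alternatives were added with the data seen. Without the _x_at probe sets, no member (0) was at least 1.5-fold higher with stimulation in the shIKKE line, and the response difference had 0 above by 2-fold and 1 by 1.5-fold. With the second probe set, stimulation had 1 member higher by 2-fold and 2 by 1.5-fold in the shIKKE line and 5 by 1.5-fold in the control line. The lines with solvent then had 1 higher and 1 lower by 2-fold, and 3 higher and 5 lower by 1.5-fold, and the responses 2 above and 5 below by 2-fold and 7 below by 1.5-fold. With the other line's solvent array as baseline, the shIKKE line had 4 members lower by 2-fold, 12 lower by 1.5-fold and 0 higher by 1.5-fold. The control line then had 0 lower by 2-fold and 2 by 1.5-fold. These values include the difference between the lines. Their member medians were -0.36 in the shIKKE line and -0.07 in the control line, beside -0.01 and -0.04 over all genes. Shares of all genes were not computed for the fold counts of any alternative, so those counts have no background beside them. The reversed values were those of E2F2 with stimulation in the shIKKE line (0.34 by the median of probe sets and by the second one), of TK1 there (0.072, second probe set), and of TK1 (0.20) and E2F1 (0.35) between stimulated lines, also by the second probe set. The cause was not tested. What limits these values is 1 array per group and, for the further E2F2 probe sets, a dimmer signal. On the stimulated shIKKE array the second TK1 and E2F1 probe sets read 564 and 366, and those used read 530 and 357. On the other arrays the second probe sets of these genes read lower than those used.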
